A study of Mus musculus with 8 samples.

Results

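Of the genes counted in the soleus, a calf muscle rich in slow fibres, 10 at the output end of the Hippo pathway were compared between control and Dnm2 +/K562E mice. They were taken by symbol: the coactivators Yap1 and Wwtr1 (TAZ), the DNA-binding factors Tead1, Tead2, Tead3 and Tead4, and 4 genes usually listed as their targets, Ctgf (also named Ccn2), Cyr61 (also named Ccn1), Amotl2 and Lats2. All 10 were found among the 22880 gene IDs of the deposited count files, and all 10 were among the 14001 genes that passed a filter on low counts. Controls were 4 Dnm2 +/+ mice and the other group 4 mice heterozygous for a germline knock-in of the K562E mutation. All 8 were males of 2 months on a C57BL/6 background. Dnm2 encodes the large GTPase dynamin 2, which cuts vesicles from membranes, and the mutation is linked to a dominant form of Charcot-Marie-Tooth neuropathy in people. Because the allele sits at the endogenous locus and a loxP site remains in an intron beside it, every cell of the muscle carries both, and the values do not single out the muscle fibres. RNA was sequenced from whole muscle, so fewer cells of a type and less RNA per cell cannot be told apart.

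In the Hippo pathway the kinases MST1 and MST2 (genes Stk4 and Stk3) activate LATS1 and LATS2, which phosphorylate YAP and TAZ and so hold them in the cytoplasm or send them to degradation. Unphosphorylated YAP and TAZ enter the nucleus and bind TEAD factors, which recognise the DNA element MCAT, with the core CATTCC. In skeletal muscle TEAD factors act on genes of the fibre itself, while YAP and TAZ are also active in satellite cells, fibroblasts and endothelium, and they respond to mechanical load. Much of this control acts on the proteins, which RNA counts do not measure.

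The MCAT core was looked for because members of this group could themselves carry the site that TEAD factors bind. CATTCC, or GGAATG on the other strand, was searched on both strands in the 250 bases before each start site in RefSeq promoters of GRCm38.p6. It was found in 12.6% of 32851 promoters and 14.4% of 27025 genes. Of the 10 genes, 7 had a promoter in the table and 5 of these held the core, namely Cyr61, Yap1, Wwtr1, Tead3 and Amotl2, while Tead2 and Lats2 did not hold these letters in this window. Tead1, Tead4 and Ctgf had no entry. The stretches around the site of Cyr61, the only one of the called targets with an entry, of both coactivators and of Tead3 follow, 5′ to 3′ on the strand of the gene with the core in capitals. Wwtr1 and Tead3 have alternative start sites, and the position is given from a single start site. From its other start site the Wwtr1 core is at -170. Another Tead3 window held 2 cores, at -123 and -114, in a stretch that overlaps an exon, and a further window held none. A gene with several windows has more chances to hold the core. A match is a description of the letters and no measurement of binding.
Cyr61, chr3:145650033-145650138, minus strand, core at position -103 from the start site: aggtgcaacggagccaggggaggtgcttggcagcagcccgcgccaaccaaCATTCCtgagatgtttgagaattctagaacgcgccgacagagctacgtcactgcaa
Yap1, chr9:8004682-8004787, minus strand, core at position -141: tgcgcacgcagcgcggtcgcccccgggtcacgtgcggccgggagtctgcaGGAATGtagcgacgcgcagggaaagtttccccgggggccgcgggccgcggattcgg
Wwtr1, chr3:57575991-57576096, minus strand, core at position -136: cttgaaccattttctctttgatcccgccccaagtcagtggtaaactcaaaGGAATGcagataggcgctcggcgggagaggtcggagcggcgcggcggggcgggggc
Tead3, chr17:28350932-28351037, minus strand, core at position -182: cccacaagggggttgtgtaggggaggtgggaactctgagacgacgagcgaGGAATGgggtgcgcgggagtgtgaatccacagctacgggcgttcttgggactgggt

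Depth ranged from 33407430 to 48832814 counts per mouse. Levels are given as normalized CPM, the count relative to a common library size after scaling with the TMM method of edgeR, whose factors were 0.915 to 0.959 in controls against 1.04 to 1.10 in Dnm2 +/K562E mice. Fold changes are log2 differences of Dnm2 +/K562E over control from edgeR's quasi-likelihood test, with p-values adjusted by Benjamini-Hochberg over all 14001 genes. A gene passed the test at an adjusted p under 0.05, and it was called when the log2 fold change was also at least 0.58 in size. The mutated gene itself, Dnm2, counted from both alleles together, was at 66.3 ± 4.74 normalized CPM in controls and 73.4 ± 2.43 in Dnm2 +/K562E mice (SD, n = 4 each; adjusted p = 0.0910). The lowest mutant mouse, at 70.3, was just above the highest control, at 68.8, although the difference did not pass the test. These values do not check the genotype labels, since a point mutation need not change the RNA level.

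Both coactivators and the secreted targets Ctgf and Cyr61 were higher in Dnm2 +/K562E soleus, Tead1 was lower, and the other 5 genes did not pass the test. By adjusted p alone, 4 of the 10 genes were higher, where 22.2% of all tested genes were, and 1 was lower, where 21.7% were. With the fold threshold added, Ctgf and Cyr61 were called higher, 2 of 10 against 12.9% of all genes, and none was called lower, against 7.85%. Scaling by library size alone called 4 of the 10 higher and none lower, with 2865 higher and 564 lower of all genes in place of 1806 and 1099. The exact test of edgeR and DESeq2 also called none lower, and Tead1 was the 1 lower gene with an unadjusted p under 0.05. The 2 genotypes did not overlap in 3 higher genes, Yap1, Wwtr1 and Ctgf, where 20.6% of all genes were of this kind, and in none that was lower, where 20.5% were. The median log2 fold change of the 10 genes was 0.15, beside 0.01 over all genes tested. The counts of the group were thus not far from those of all genes, and the description below rests on the single genes.

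**Figure D1:**
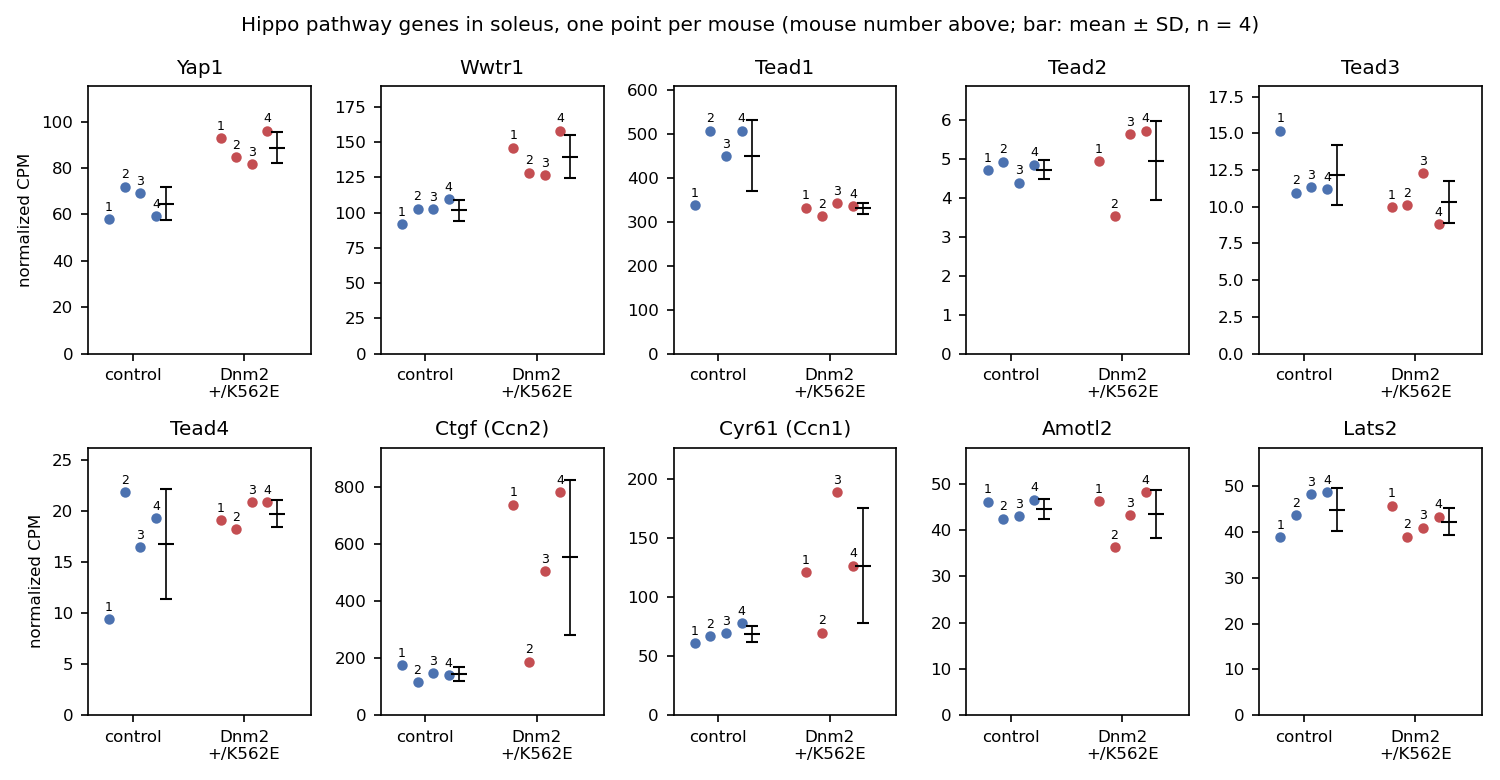
Normalized CPM (vertical axis, from 0) of the 10 genes in each of 4 control mice (blue) and 4 Dnm2 +/K562E mice (red), with the mouse number above each point and the mean ± SD as a bar beside them. Yap1, Wwtr1 and Ctgf do not overlap between the genotypes, control 1 is apart from the other controls for Tead1, Tead3 and Tead4, and Dnm2 +/K562E mouse 2 has the lowest Ctgf and Cyr61 of its group.

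Yap1 (ENSMUSG00000053110, chr9:7931999-8004596, minus strand) encodes YAP, a coactivator that has no DNA-binding domain of its own. Its normalized CPM was 57.8, 71.96, 69.3 and 59.3 in controls 1 to 4 and 92.8, 84.7, 81.6 and 96.2 in Dnm2 +/K562E mice 1 to 4. The lowest mutant mouse lay above the highest control. Yap1 rose from 64.6 ± 7.08 to 88.8 ± 6.83 normalized CPM (SD, n = 4 each), a log2 fold change of 0.46 (standard error 0.09, 95% interval 0.27 to 0.65, adjusted p = 0.00155, edgeR). The rise was 1.37-fold and thus short of the fold threshold.

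Wwtr1 (ENSMUSG00000027803, chr3:57455649-57575910, minus strand) encodes TAZ, the paralog of YAP. It stood at 91.6, 103, 102 and 109 normalized CPM in controls 1 to 4 and at 146, 128, 127 and 158 in Dnm2 +/K562E mice 1 to 4, again without overlap. The rise was close to that of Yap1, from 101 ± 7.30 to 139.7 ± 15.1 (SD, n = 4 each), or 0.46 on the log2 scale (standard error 0.08, 95% interval 0.28 to 0.65, adjusted p = 0.00124, edgeR). Per kilobase of exon, the scale on which different genes can be compared, the level of Wwtr1 was 3.06 ± 0.361 times that of Yap1 in controls and 3.04 ± 0.106 times in Dnm2 +/K562E mice (SD, n = 4 each). The level of TAZ RNA relative to YAP RNA was thus alike in both genotypes, with ranges that overlapped. Over the 17 alternative ways of processing that gave a fold change, both genes kept their direction and an adjusted p under 0.05, with log2 fold changes of 0.40 to 0.67 for either gene. The upper end came from scaling by library size alone, which moved the median of all genes to 0.22, so that the rise relative to that median was close to the one reported.

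Among the TEAD genes, Tead1 had the highest level and was the only one of the 4 that passed the test. Tead1 (ENSMUSG00000055320, chr7:112679318-112906807, plus strand) was at 339, 508, 451 and 508 normalized CPM in controls 1 to 4 and at 332, 314, 343 and 336 in Dnm2 +/K562E mice 1 to 4. Controls 2 to 4 lay far above every mutant mouse, whereas control 1 lay within the range of the mutant mice. Tead1 fell from 451 ± 79.9 to 331 ± 12.4 normalized CPM (SD, n = 4 each), a log2 fold change of -0.45 (standard error 0.11, 95% interval -0.70 to -0.20, adjusted p = 0.00847, edgeR). Without control 1 the log2 fold change was -0.57 (adjusted p = 5.87e-05, edgeR). With library size alone it was -0.24 (adjusted p = 0.113, edgeR) and no longer passed the test, although relative to the median of all genes under that scaling, 0.22, the difference kept its size.

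The other TEAD genes were expressed at far lower levels. Tead4 (ENSMUSG00000030353, chr6:128224288-128300823, minus strand), which is known for its part in the differentiation of myoblasts, was at 9.38, 21.8, 16.5 and 19.3 normalized CPM in controls 1 to 4 and at 19.1, 18.2, 20.8 and 20.8 in Dnm2 +/K562E mice 1 to 4. The mutant mice were close together, and all 4 lay within the wide range of the controls. Its log2 fold change was 0.24 (95% interval -0.21 to 0.68, adjusted p = 0.365, edgeR), and without control 1 it was 0.03, so that most of this difference came from that mouse. Tead3 (ENSMUSG00000002249, chr17:28331671-28350817, minus strand) was at 15.2, 11.0, 11.4 and 11.2 normalized CPM in controls 1 to 4 and at 9.99, 10.1, 12.3 and 8.84 in Dnm2 +/K562E mice 1 to 4. Here control 1 was the highest of all mice, whereas it was the lowest of the controls for Tead1 and Tead4. The log2 fold change of Tead3 was -0.24 (95% interval -0.53 to 0.06, adjusted p = 0.176, edgeR), which leaves a fall of up to 0.53 possible. Tead2 (ENSMUSG00000030796, chr7:45215753-45233644, plus strand), best known from embryonic tissue, was the least expressed, at 4.71, 4.93, 4.39 and 4.86 normalized CPM in controls 1 to 4 and 4.94, 3.53, 5.63 and 5.73 in Dnm2 +/K562E mice 1 to 4. The mutant mice spread to both sides of the controls, with a log2 fold change of 0.07 (95% interval -0.29 to 0.43, adjusted p = 0.751, edgeR). Of its exon bases, 13 overlap Cd37 on the other strand.

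Scaling between mice cancels when the TEAD genes are compared within each mouse. Per kilobase of exon, Tead1 made up 81.0% to 82.3% of the summed level of the 4 TEAD genes in controls and 74.2% to 76.0% in Dnm2 +/K562E mice, with no overlap (means 81.7% ± 0.708 and 75.2% ± 0.844, SD, n = 4 each). Control 1, which stood apart in the level of Tead1, had a share of 81.0%, next to those of the other controls. The share of Tead4 was 8.47% to 13.1% in controls and 16.4% to 17.5% in Dnm2 +/K562E mice, so that its portion of TEAD RNA was larger in every mutant mouse although its level did not pass the test. Tead2 made up 2.48% and 3.17% and Tead3 4.68% and 4.73% on average in controls and mutant mice. The summed level of the 4 genes was 40.7 ± 7.09 normalized CPM per kilobase in controls and 32.5 ± 1.54 in Dnm2 +/K562E mice (SD, n = 4 each), and control 1, at 30.8, was as low as the mutant mice. The summed level of Yap1 and Wwtr1 relative to that of the TEAD genes was 0.825, 0.634, 0.715 and 0.644 in controls 1 to 4 and 1.26, 1.18, 1.04 and 1.32 in Dnm2 +/K562E mice 1 to 4. On this scale, coactivator RNA was thus below TEAD RNA in every control and above it in every mutant mouse. Which sum was the higher depends on the annotated exon lengths, which need not be those of the transcripts in soleus. These shares and ratios were formed with the levels known and are given without a test.

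**Figure D2:**
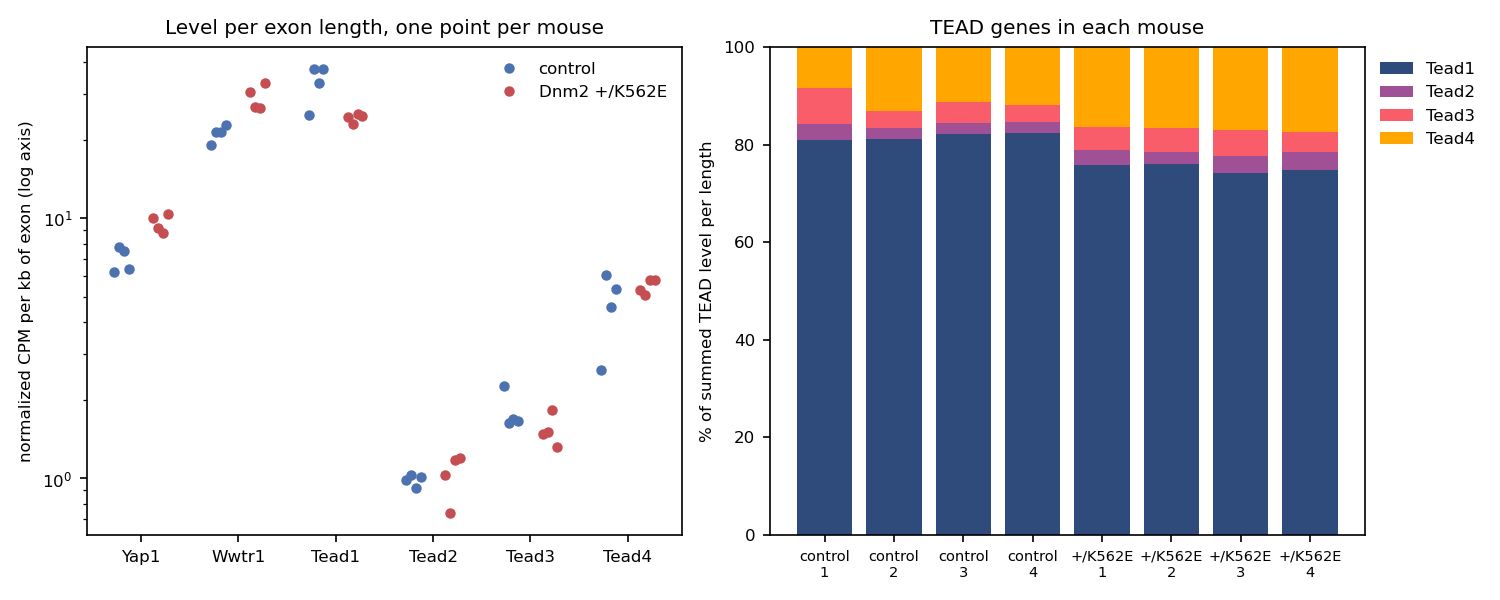
Left, normalized CPM per kilobase of exon (log axis) of Yap1, Wwtr1 and the TEAD genes, one point per mouse (blue, control; red, Dnm2 +/K562E). Right, the share in percent that each TEAD gene takes of their summed level per kilobase in each mouse, where Tead1 takes 81.0% to 82.3% in controls and 74.2% to 76.0% in Dnm2 +/K562E mice.

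Of the 4 targets, the largest difference was that of Ctgf (ENSMUSG00000019997, chr10:24595442-24598683, plus strand), which encodes a secreted matricellular protein associated with fibrosis. Its normalized CPM was 176, 115, 147 and 139 in controls 1 to 4 and 739, 188, 506 and 783 in Dnm2 +/K562E mice 1 to 4. Mouse 2 was only just above the highest control, while the other mutant mice were far above. Ctgf rose 3.84-fold, from 144 ± 25.04 to 554 ± 273 normalized CPM (SD, n = 4 each), or 1.94 on the log2 scale (standard error 0.35, 95% interval 1.17 to 2.71, adjusted p = 0.00117, edgeR). Without Dnm2 +/K562E mouse 2 the log2 fold change was 2.23 (adjusted p = 1.46e-05, edgeR).

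Cyr61 (ENSMUSG00000028195, chr3:145646976-145649981, minus strand) encodes a secreted protein of the same CCN family. It was at 60.7, 66.8, 69.4 and 77.5 normalized CPM in controls 1 to 4 and at 121, 69.8, 189 and 126 in Dnm2 +/K562E mice 1 to 4. Mouse 2 was again the lowest of the mutant mice, here within the range of the controls, and mouse 3 was the highest, unlike for Ctgf. Cyr61 rose 1.84-fold, from 68.6 ± 6.96 to 126 ± 48.7 normalized CPM (SD, n = 4 each), or 0.88 on the log2 scale (standard error 0.23, 95% interval 0.38 to 1.39, adjusted p = 0.00948, edgeR). It was 1.08 without mouse 2 and 0.62 without mouse 3, still past both thresholds.

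Both secreted targets are also quickly induced genes, so the values of other such genes belong beside them. Of 10 immediate early genes, 3 were higher (Fos, Junb and Egr2), 2 lower (Jun and Nr4a1) and 5 did not pass the test. By adjusted p, 22.2% of all tested genes were higher and 21.7% lower, so these counts were not far from those of all genes. Fos, which encodes a subunit of the transcription factor AP-1, was at 12.3, 6.80, 7.75 and 12.0 normalized CPM in controls 1 to 4 and at 29.8, 11.1, 15.6 and 31.1 in Dnm2 +/K562E mice 1 to 4. Mouse 2 was the lowest mutant mouse for Fos, as for Ctgf and Cyr61, and Egr2 was also lowest there (4.11 against 4.89 to 12.1 in the other mutant mice). Junb ran the other way, at 27.5, 39.0, 31.3 and 24.8 normalized CPM in Dnm2 +/K562E mice 1 to 4, with mouse 2 the highest, as did Ier2, at 14.0, 16.1, 16.1 and 12.9. The summed level of the 10 genes was 399 to 447 normalized CPM in controls and 303 to 455 in Dnm2 +/K562E mice, with mouse 2 the lowest. The part of these genes in the values of Ctgf and Cyr61 was not tested.

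Amotl2 and Lats2, targets that in turn restrain YAP and TAZ, differed little. Amotl2 (ENSMUSG00000032531, chr9:102716672-102733418, plus strand), which encodes an angiomotin-like protein that binds YAP, was at 46.1, 42.5, 43.0 and 46.5 normalized CPM in controls 1 to 4 and at 46.2, 36.2, 43.3 and 48.2 in Dnm2 +/K562E mice 1 to 4. The genotypes overlapped, with mouse 2 of the mutants the lowest of all. The log2 fold change was -0.04 (95% interval -0.23 to 0.16, adjusted p = 0.772, edgeR). Lats2 (ENSMUSG00000021959, chr14:57689662-57758388, minus strand), one of the kinases that phosphorylate YAP and TAZ, was at 38.9, 43.7, 48.3 and 48.7 normalized CPM in controls 1 to 4 and at 45.7, 39.0, 40.9 and 43.4 in Dnm2 +/K562E mice 1 to 4. Its log2 fold change was -0.09 (95% interval -0.28 to 0.10, adjusted p = 0.427, edgeR). The intervals leave out a rise or fall of the size seen for Ctgf or Cyr61, though both genes turned slightly positive with library size alone, at 0.17 and 0.12. Of the 31-base stretches in the transcripts of Lats2, 41.7% were shared with other annotated genes, so its count may hold reads of others or have lost its own. For each of the other 9 genes this share was 1.89% or less.

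**Figure D3:**
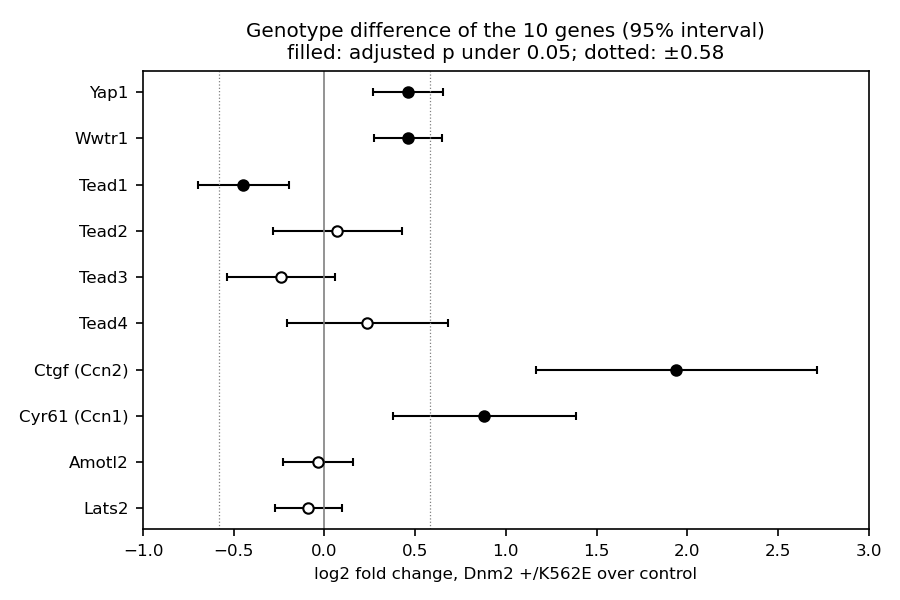
Log2 fold change of Dnm2 +/K562E over control (horizontal axis) of the 10 genes, with 95% intervals from edgeR's quasi-likelihood fit; filled points have an adjusted p under 0.05 and dotted lines mark 0.58 in either direction. Ctgf (1.94) and Cyr61 (0.88) are past the line, Yap1, Wwtr1 (0.46 each) and Tead1 (-0.45) are within it, and the intervals of the other 5 genes include 0.

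Per kilobase of exon, Ctgf had the highest control level of the group, 50.5 ± 8.75 normalized CPM per kilobase (SD, n = 4). Cyr61 (34.0 ± 3.45) and Tead1 (33.3 ± 5.89) came next in controls and overlapped, followed by Wwtr1 at 21.2 ± 1.53. Amotl2, Yap1 and Lats2 lay together at 7.08 ± 0.331, 6.98 ± 0.764 and 6.44 ± 0.662, with overlapping ranges. Tead4 (4.65 ± 1.49), Tead3 (1.81 ± 0.301) and Tead2 (0.986 ± 0.0501) closed the order in controls. In Dnm2 +/K562E mice Ctgf was at 194 ± 95.4, Cyr61 at 62.6 ± 24.1, Wwtr1 at 29.2 ± 3.16 and Tead1 at 24.4 ± 0.914 normalized CPM per kilobase (SD, n = 4 each). The 2 last had changed places, without overlap, and Yap1, at 9.59 ± 0.737, was now above Amotl2 at 6.91 ± 0.834 and Lats2 at 6.06 ± 0.420. Tead4 (5.48 ± 0.366), Tead3 (1.54 ± 0.216) and Tead2 (1.04 ± 0.211) kept their order.

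The other genes of the pathway moved in both directions. Of 27 kinases, scaffolds and cofactors listed, 25 were tested, since Wwc1 was filtered out and Vgll1 had no count in any of the 8 mice. By adjusted p, 7 were higher (Amot, Frmd6, Dchs1, Taok3, Stk3, Stk4 and Mob1a), 4 lower (Vgll2, Amotl1, Nf2 and Mob1b) and 14 did not pass. With the fold threshold, 3 were called higher and 1 lower, and the genotypes did not overlap in 7 higher and 5 lower genes. The median log2 fold change was -0.05, and the shares were near the background given above.

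Among the kinases and their adaptors, the differences were small. Stk3 (MST2) rose from 8.96 ± 0.408 to 11.6 ± 0.451 normalized CPM (log2 fold change 0.37, adjusted p = 0.00399, edgeR; SD, n = 4 each). Stk4 (MST1), its paralog, rose from 20.7 ± 0.496 to 25.3 ± 1.38 (0.29, adjusted p = 0.00501, edgeR). For both kinases the lowest mutant mouse was above the highest control. Mob1a, an activator of LATS kinases, rose by 0.25 on the log2 scale (adjusted p = 0.0283, edgeR), which lost its adjusted p under 0.05 when 1 of 4 mice was left out (controls 1 or 3, Dnm2 +/K562E mice 1 or 4), with values from 0.18 to 0.25. Lats1, at 29.2 ± 0.693 and 28.0 ± 1.32 normalized CPM, gave a log2 fold change of -0.06 (95% interval -0.20 to 0.07, adjusted p = 0.427, edgeR). Sav1, the scaffold of the MST kinases, had one of 0.12 (adjusted p = 0.156, edgeR), and part of its exons overlaps Atl1 on the other strand, so that reads could be shared. Neither of the LATS genes passed the test, while both MST genes did.

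Among upstream scaffolds, the angiomotin family diverged. Amot, an X-linked gene whose product binds and retains YAP, was higher in every mutant mouse, from 85.5 ± 10.5 to 145 ± 7.89 normalized CPM (SD, n = 4 each; log2 fold change 0.77, adjusted p = 4.72e-05, edgeR). Amotl1, whose level per kilobase of exon was the highest of the family in both genotypes, was lower in every mutant mouse, from 796 ± 102 to 558 ± 27.1 normalized CPM (-0.51, adjusted p = 0.00113, edgeR). Without control 1 it was -0.61, past the fold threshold. Amotl2, the third member, was without a detectable difference, as given above. Frmd6, a FERM-domain protein upstream of the kinases, rose from 27.9 ± 4.48 to 45.2 ± 6.67 normalized CPM (0.69, adjusted p = 0.00146, edgeR). Of the 31-base stretches in the transcripts of Frmd6, 17.2% were shared with the annotated gene Gm5780, so its count may be affected. The protocadherin Dchs1 rose from 31.4 ± 2.95 to 48.2 ± 10.6 normalized CPM (0.62, adjusted p = 0.00415, edgeR). Its log2 fold change was 0.46 without Dnm2 +/K562E mouse 1 and 0.55 without control 1, both under the fold threshold, so that the call was lost while the adjusted p stayed under 0.05. Nf2 (merlin), an activator of the pathway at the membrane, fell from 111 ± 3.22 to 92.0 ± 5.69 normalized CPM (-0.27, adjusted p = 0.00429, edgeR). With library size alone the difference in Nf2 was -0.06 (adjusted p = 0.430, edgeR) and no longer passed the test, although relative to the median of all genes under that scaling, 0.22, it kept its size.

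Vestigial-like cofactors compete with YAP and TAZ for TEAD factors. Vgll2, the muscle member of the family, was at 85.7, 188, 187 and 199 normalized CPM in controls 1 to 4 and at 72.2, 57.99, 59.2 and 84.6 in Dnm2 +/K562E mice 1 to 4. Control 1 was far below the other controls, as for Tead1, yet just above every mutant mouse. Vgll2 had the most negative log2 fold change of the pathway list, -1.27 (standard error 0.23, adjusted p = 0.00125, edgeR), from a mean of 165 ± 53.2 to 68.5 ± 12.5 normalized CPM (SD, n = 4 each). Vgll3 and Vgll4, with control means of 4.51 and 13.4 normalized CPM, had log2 fold changes of 0.14 (adjusted p = 0.609, edgeR) and 0.16 (adjusted p = 0.351, edgeR).

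Of 18 further genes usually listed as YAP and TEAD targets, 9 were higher by adjusted p, where 22.2% of all tested genes were. Of the rest, 1 was lower, where 21.7% of all tested genes were, and 8 did not pass. With the fold threshold, 8 were called higher and 1 lower, where 12.9% and 7.85% of all genes were. The median log2 fold change of the 18 genes was 0.55. As the list was chosen with earlier results of these data known, these counts are a description and no test. Ankrd1, a stress-responsive ankyrin repeat protein of muscle, was at 12.0, 9.71, 8.85 and 8.71 normalized CPM in controls 1 to 4 and at 272, 175, 203 and 252 in Dnm2 +/K562E mice 1 to 4. It had the highest log2 fold change of the list, 4.52 (adjusted p = 9.34e-08, edgeR), and mouse 2 was the lowest mutant mouse here too. Fjx1, whose fly homolog regulates Fat and Dachsous signalling, rose from 2.09 ± 0.545 to 8.06 ± 1.07 normalized CPM (1.94, adjusted p = 2.48e-05, edgeR; SD, n = 4 each). The growth factor Tgfb2 rose from 15.3 ± 3.37 to 37.0 ± 1.88 normalized CPM (1.28), and the receptor tyrosine kinase Axl from 105 ± 13.2 to 220.0 ± 22.2 (1.07). Smaller rises were those of F3, the tissue factor that starts coagulation (0.84), Myof, a membrane repair protein (0.71), and Rbms3, an RNA-binding protein (0.58), together with Ccdc80 (0.80) and Arhgef17 (0.49). Rbms3 was just past the fold threshold and lost the call without control 1 (0.54), control 2 (0.54) or Dnm2 +/K562E mouse 1 (0.51). Igfbp3, which binds insulin-like growth factors, went the other way, from 39.2, 67.8, 70.1 and 64.3 normalized CPM in controls 1 to 4 to 19.8, 22.6, 20.8 and 23.2 in Dnm2 +/K562E mice 1 to 4 (-1.48, adjusted p = 3.41e-05, edgeR). Gadd45b also had a negative log2 fold change past 0.58 in size, -0.86, but just missed the test (adjusted p = 0.0518, edgeR). The scaffolding phosphatase Ptpn14, which stands in both this list and the pathway list, gave a value of -0.10 on this scale (adjusted p = 0.428, edgeR).

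**Figure D4:**
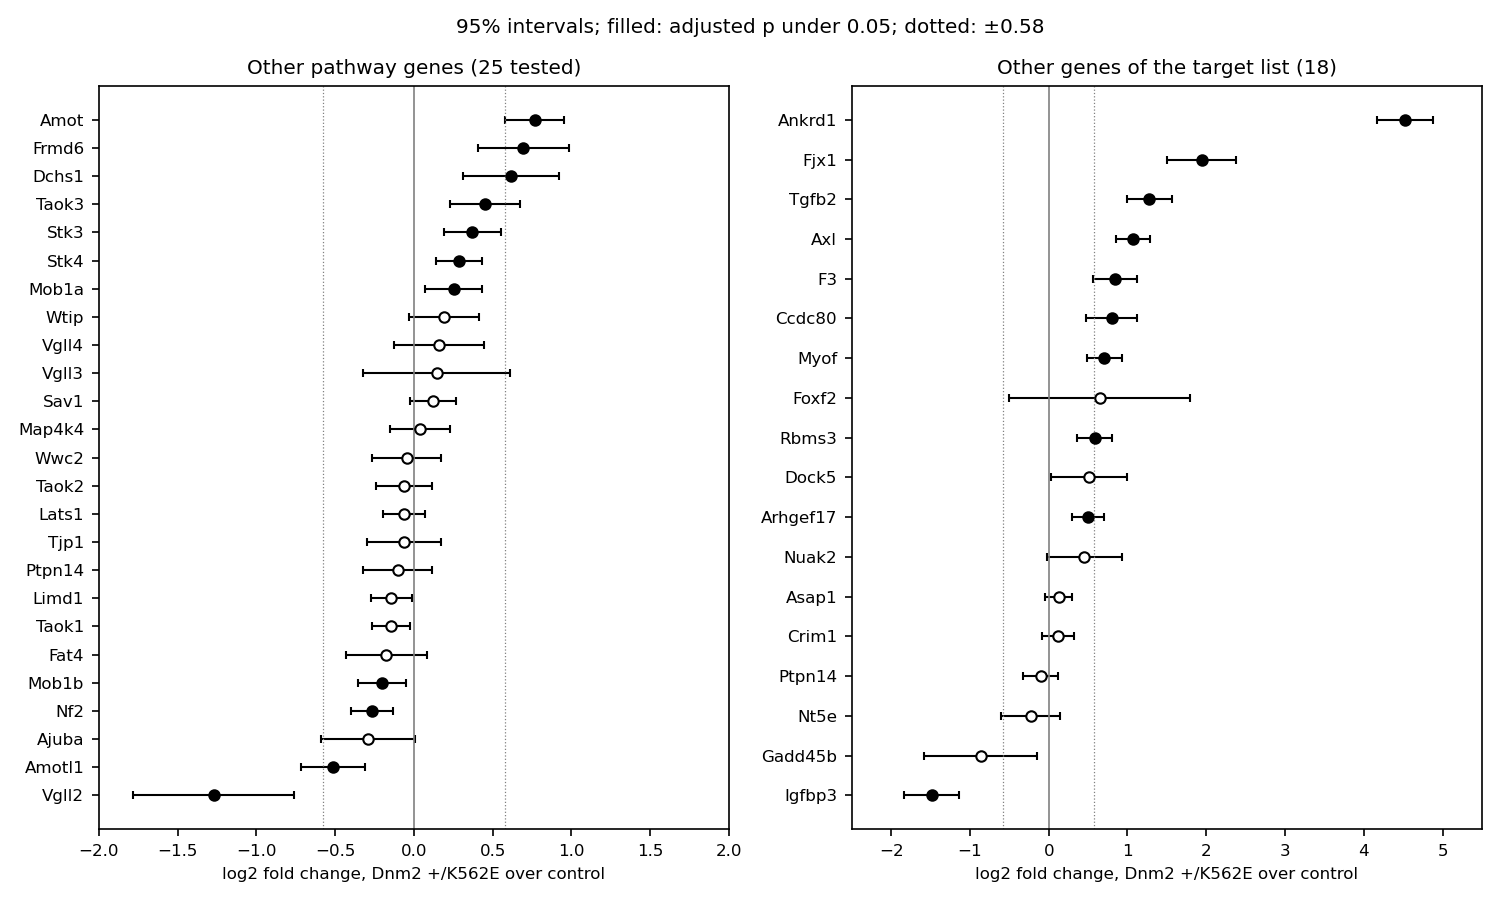
Log2 fold change of Dnm2 +/K562E over control (horizontal axes, with different ranges) with 95% intervals, for 25 other pathway genes (left) and 18 further genes of the target list (right); filled points have an adjusted p under 0.05 and dotted lines mark 0.58 in either direction. The pathway genes lie on both sides of 0, from Vgll2 (-1.27) to Amot (0.77), while 9 genes of the target list are higher and Igfbp3 (-1.48) is lower.

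The RNA of cell type markers also differed between the genotypes, which does not show whether the cells themselves differed in number. All marker lists had 6 genes, and no marker was at 0 counts over all mice. Markers are counted by adjusted p, by which 22.2% of all tested genes were higher and 21.7% lower. The muscle fibre list, with Myh7 and Tnnt1 of slow fibres at means of 6014 and 1829 normalized CPM in controls, was lower in 6 of 6 genes, with a summed level of 50018 to 56838 normalized CPM in controls and 31811 to 36622 in Dnm2 +/K562E mice. Fibroblast markers were higher in 5 of 6 genes (1001 to 1433 against 1915 to 2418), tendon markers in 5 of 6 (327 to 737 against 933 to 1292) and macrophage markers in 6 of 6 (68.1 to 125 against 146 to 246). Endothelial markers were lower in 5 of 6 genes (879 to 919 against 625 to 724), and mural markers in 4 of 6 with 1 higher (1616 to 1781 against 1181 to 1397). Of the satellite cell markers Pax7, Myf5 and Calcr were lower and Chodl was higher, rising from 40.0 ± 10.6 to 142 ± 16.3 normalized CPM (SD, n = 4 each). The median log2 fold change of this list was -1.12, while its summed level, with Chodl included, was 110 to 142 normalized CPM in controls and 196 to 204 in Dnm2 +/K562E mice. Schwann cell markers overlapped, with 1 of 6 lower (161 to 181 against 135 to 169), and adipocyte markers spread widely with none past the test in edgeR, also unadjusted (95.9 to 510.0 against 163 to 284). Of the 31-base stretches in the transcripts of Itgam, Myh2 and Myh7, 68.1%, 32.8% and 22.9% were shared with other annotated genes. Exons of Csf1r (15.1%) and Ckm (15.5%) overlap a gene on the other strand, so these marker counts may be affected. Yap1, Wwtr1, Ctgf and Cyr61 were higher, as were the fibroblast, tendon and macrophage lists and the satellite cell sum. Tead1 and Vgll2 were lower, as were the fibre, endothelial and mural lists. Any higher or lower gene shares its direction with such lists, so this match does not tie a gene to a cell type. The part of these lists in the values of the Hippo genes was not tested.

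**Figure D5:**
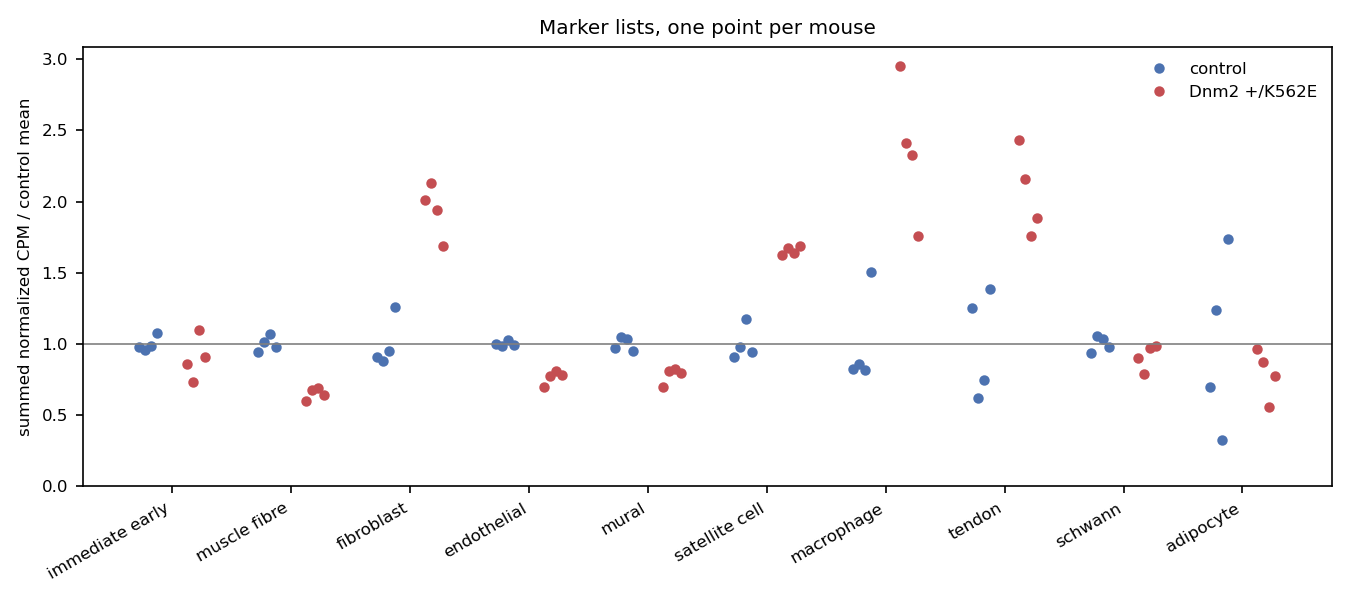
Summed normalized CPM of each marker list relative to its mean in controls (vertical axis, from 0; the line marks 1), one point per mouse (blue, control; red, Dnm2 +/K562E). The fibre, endothelial and mural lists are lower and the fibroblast, tendon and macrophage lists higher in all 4 Dnm2 +/K562E mice. The satellite cell sum is also higher, with Chodl at 40.0 and 142 normalized CPM on average in the 2 genotypes, although Pax7, Myf5 and Calcr are lower, while the immediate early, Schwann cell and adipocyte lists overlap.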

How the data were processed

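RNA of soleus muscle from 4 control and 4 Dnm2 +/K562E mice was sequenced. The authors deposited raw read counts per Ensembl gene and mouse, without normalization. By the submitters' processing notes and the paper, reads had been trimmed (Trimmomatic 0.33), aligned to GRCm38 (STAR 2.5.1b) and counted (featureCounts). Multi-mapping reads were set to count once, at the primary alignment, and reads on overlapping genes for every one of them. A minimum mapping quality was also required, which can remove multi-mapping reads. Overlapping or near-identical genes can therefore gain or lose reads, and the strand setting is not given in the sources used here. The paper describes poly A-selected libraries and the labels a total RNA kit.

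Of 22880 IDs, 22647 matched GENCODE M21 (GRCm38), the source of positions and exon lengths. In edgeR 4.0.16 (R 4.3.3), filterByExpr (minimum count 10, minimum total 15), TMM factors and the quasi-likelihood F-test on genotype were used, with Benjamini-Hochberg adjustment over 14001 genes. Normalized CPM is the count scaled by library size times TMM factor. Standard errors are those implied by the F statistic, and 95% intervals use its degrees of freedom. Depth was 33407430 to 48832814 counts per mouse. Low counts limit the precision of Tead2, Vgll3, Fjx1, Egr2 and the rarest markers most. Counts of any 2 mice of 1 genotype differed by more than sampling noise (chi-square per degree of freedom 13.0 or more). The labels do not say that numbers pair the mice, so p-values rest on unpaired animals.

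The genes and lists were chosen with earlier results of these data known. Named were the 10 genes and Dnm2, then Stk3, Stk4, Sav1, Lats1, Mob1a, Nf2, Vgll2, Vgll3, Vgll4 and Ankrd1, then up to 6 pathway and 8 target genes with the smallest p that passed the test, and the ends of ranges. Taok3, Mob1b, Ccdc80, Arhgef17, Ptpn14, Gadd45b and the single markers and immediate early genes were named after their values were seen. Tests were repeated with edgeR's exact test, with DESeq2 1.42.0, without the filter or with at least 10 counts required in all mice, with median-ratio factors or by library size alone, without a fold threshold, with the mouse number as a block and without each mouse in turn. Leaving out control 1 and Dnm2 +/K562E mouse 2 together was added after the data were seen. The fit was tested on simulated data.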

Additional observations from a re-analysis of the deposited data

Results flagged for a closer look

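The 32 named genes and 2 genotypes formed 64 groups of 4 mice. In 6 of these groups a single mouse lay apart from the rest by Dixon's 95% limit of 0.829. Chance alone flags about 1 group in 20, and flags of the same mouse need not be independent. Control 1 accounts for 4 of the 6. It had the highest Tead3 of the controls, 15.2 normalized CPM, while the other controls were between 11.0 and 11.4. It had the lowest Vgll2 (85.7), Vgll4 (10.2) and Amotl1 (643) of the controls. Its low Tead1 (339) and Tead4 (9.38), given in the report, did not reach the limit. Of the Dnm2 +/K562E mice, mouse 4 had the lowest Axl, 187 normalized CPM, while the others were between 229 and 232. Control 3 had the lowest Dnm2, 59.2 normalized CPM, while the other controls were between 68.5 and 68.8. What sets these mice apart was not tested.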

How the results depend on the processing

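Yap1, Wwtr1, Ctgf and Cyr61 stayed higher with an adjusted p under 0.05 in all 17 alternatives that give a fold change, with log2 fold changes of 0.40 to 0.67, 0.40 to 0.67, 1.73 to 2.34 and 0.62 to 1.08. The number of the 10 genes called was 2 higher and 0 lower whichever mouse was left out, and the same with either replicate block. Dropping the fold threshold gave 4 higher and 1 lower, with 7 and 4 pathway genes, and 3103 and 3036 of all genes. With library size alone 4 of the 10 genes were called higher, as were 5 pathway genes, and 2865 higher and 564 lower of all genes. The number of lower target genes was 2 with the exact test, DESeq2, median-ratio factors, no filter, the description block and both mice left out, where 2 pathway genes were also lower. Leaving out single mice gave 2 to 3 higher and 1 to 2 lower pathway genes, 7 to 9 higher and 1 to 2 lower target genes, and 1588 to 1970 higher and 1026 to 1208 lower genes in all. Leaving out single mice, Tead2 ran from -0.00583 to 0.20 and Amotl2 from -0.0883 to 0.0429. Signs turned for Tead2 without Dnm2 +/K562E mouse 4, for Amotl2 with library size alone (0.17), without Dnm2 +/K562E mouse 2 and with both mice left out (0.0598), and with library size alone for Lats2 (0.12) and Lats1 (0.15). Library size alone also brought Sav1 (0.33), Vgll4 (0.37) and Dnm2 (0.36) past an adjusted p of 0.05. Mouse numbers share no animal, litter or batch in the labels, and deviations of same-numbered mice correlated at -0.114 on average by the titles and -0.0302 by the descriptions, which number the mutant mice in another order. The title number as a replicate block gave 1637 higher and 1036 lower genes, and Mob1a missed the threshold (adjusted p = 0.0813, edgeR). The cause of these changes was not tested.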
